A study of Mus musculus with 8 samples.

Results

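The genes described here encode the proteins that cycle calcium in heart muscle cells, with a pair of genes that mark the pacemaker. They were chosen by name and are 10 of the 24385 features in the expression table: *Ryr2*, *Casq1*, *Casq2*, *Atp2a2*, *Pln*, *Slc8a1*, *Cacna1c*, *Cacna1h*, *Hcn4* and *Shox2*. All 10 had a value above 0 in each library. A mean of at least 1 FPKM (fragments per kilobase of transcript, relative to all mapped fragments) was required for testing, and 7 of the 10 reached it, among 10018 genes that did. *Cacna1c*, *Casq2* and *Shox2* did not, so their changes come from a fit without that filter.

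RNA was sequenced from whole hearts of C57BL/6 mouse embryos at embryonic day 8.5 (E8.5) and 9.5 (E9.5), with 2 biological replicates in each of 4 groups. Control embryos, labelled wild type (WT), carried *Dgcr8* alleles flanked by loxP sites on both chromosomes and no Cre. Conditional knockout (cKO) embryos carried the same floxed alleles and Cre expressed from the *Mesp1* locus, so they also differed from WT by the Cre allele. Both genotypes carried the *Rosa26* mT/mG reporter on a single chromosome. *Mesp1* is active in early mesoderm, whose descendants include heart muscle and endocardium as well as other mesodermal cells, so this Cre is not restricted to heart muscle. DGCR8 is the RNA-binding partner of the nuclease DROSHA, and the pair cuts primary microRNA transcripts. The number of hearts in a library was not given in the sources used here.

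At E8.5 *Dgcr8* itself measured 7.10 and 8.60 FPKM without Cre against 1.64 and 4.67 FPKM with it, and at E9.5 it measured 3.49 and 3.23 FPKM against 1.15 and 1.77 FPKM. The cKO libraries lay below WT at both stages, and *Dgcr8* RNA was still present in them. Relative depth, read from the steps of low values, spanned 1 to 1.45 between libraries. The 12 cardiomyocyte markers were abundant throughout, with *Tnnt2* between 985 and 3157 FPKM, and their sum ran from 29898 to 92926 FPKM. At E8.5, loci under 300 bp held 15.7% and 16.2% of summed FPKM in WT against 38.6% and 50.5% in cKO, so this share moved with genotype there. At E9.5 they held 22.4% and 18.4% against 54.5% and 18.3%, and its part in the results was not tested beyond a scaling to the longer loci. The sums of other lists differed between libraries too. Decidual stroma markers reached 6807 FPKM in E8.5 cKO replicate 2 and lay between 941 and 2381 FPKM elsewhere, and uterine natural killer cell markers reached 524 FPKM in E8.5 WT replicate 1 and at most 2.47 FPKM elsewhere. Outside E8.5 cKO replicate 2, much of the decidual sum was *Cryab* (506 to 970 FPKM) and *Des* (178 to 684 FPKM). The decidual marker *Prl8a2* measured 449 and 1141 FPKM in E8.5 WT, 9.95 and 5104 FPKM in E8.5 cKO and 0.746 to 5.09 FPKM at E9.5. *Des* went the other way, with 173 to 229 FPKM at E8.5 and 411 to 684 FPKM at E9.5. The part of decidual RNA in the stage results was not tested. In whole hearts, fewer cells of a type and less RNA per cell cannot be told apart.

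In a heart muscle cell, calcium enters through voltage-gated channels and opens the ryanodine receptor, which releases more calcium from the sarcoplasmic reticulum and starts contraction. The pump SERCA2 returns calcium to that store, phospholamban restrains the pump, calsequestrin binds calcium inside the store, and the sodium-calcium exchanger extrudes it from the cell. The mouse heart starts to beat shortly before the first stage studied here, and pacemaker cells gather at the venous pole of the tube while it loops.

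Of the 10 genes, 8 had promoter sequence in RefSeq (build GRCm38.p6), in 10 entries, 3 of them for *Cacna1c*. The 250 bases before the start were searched on both strands for 5 motifs. These were the E-box core CAGCTG, the box TATAAA, the core AGATAA known from GATA factors, and the MEF2 and CArG motifs by their usual consensus. Over all 32851 promoters, CAGCTG occurred in 13%, TATAAA in 12.4%, AGATAA in 9.99%, the MEF2 motif in 2.92% and the CArG motif in 1.47%. The 3 printed here belong to the genes on which the results below turn, *Pln* and *Casq1* with the stages and *Casq2* with the genotypes. Each is written 5′ to 3′ on the strand of its gene, with the matches in capitals. For *Pln* (chr10:53337436-53337685, plus strand) the capitals mark TATAAA and, on the opposite strand, AGATAA. For *Casq1* (chr1:172219896-172220145, minus strand) they mark CAGCTG. For *Casq2* (chr3:102086165-102086414, plus strand) they mark the MEF2 motif, 69 to 60 bases before the start.
Pln: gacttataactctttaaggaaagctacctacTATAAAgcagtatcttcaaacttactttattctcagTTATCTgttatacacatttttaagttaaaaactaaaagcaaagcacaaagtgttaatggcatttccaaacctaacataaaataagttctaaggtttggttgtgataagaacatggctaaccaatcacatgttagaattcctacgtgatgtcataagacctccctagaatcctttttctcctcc
Casq1: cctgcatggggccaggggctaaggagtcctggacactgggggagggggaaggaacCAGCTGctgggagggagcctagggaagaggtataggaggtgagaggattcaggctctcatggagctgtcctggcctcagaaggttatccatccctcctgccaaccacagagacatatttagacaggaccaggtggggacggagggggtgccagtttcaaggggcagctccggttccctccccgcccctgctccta
Casq2: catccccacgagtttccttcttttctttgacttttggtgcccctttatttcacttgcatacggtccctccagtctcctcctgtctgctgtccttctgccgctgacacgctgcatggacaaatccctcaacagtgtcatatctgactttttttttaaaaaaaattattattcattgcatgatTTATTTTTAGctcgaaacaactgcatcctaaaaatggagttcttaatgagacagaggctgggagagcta

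Elsewhere among these genes, TATAAA was found before *Shox2* and AGATAA before *Slc8a1*. None of the 5 motifs was found in the entries of *Ryr2*, *Hcn4* and *Cacna1c*. No pair among *Pln*, *Casq1* and *Casq2* shared a motif in this window. A match is a run of letters and not a measured binding site.

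The levels of the 10 genes covered a wide range. Mean FPKM over the 8 libraries was highest for *Casq1* (116 FPKM), followed by *Atp2a2* (32.6 FPKM), *Pln* (9.48 FPKM), *Slc8a1* (9.16 FPKM), *Hcn4* (1.47 FPKM), *Ryr2* (1.33 FPKM), *Cacna1h* (1.21 FPKM), *Cacna1c* (0.976 FPKM), *Shox2* (0.770 FPKM) and *Casq2* (0.569 FPKM). *Casq1* was above *Atp2a2* in 7 of 8 libraries, and *Slc8a1* was above *Hcn4* in 8 of 8. *Hcn4*, *Ryr2*, *Cacna1h* and *Cacna1c* changed places from library to library, with the upper of each neighbouring pair higher in only 4 or 5 of 8 libraries, so their order was not resolved. The same held for *Pln* and *Slc8a1* and for *Shox2* and *Casq2*, each pair with 4 of 8.

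**Figure D1:**
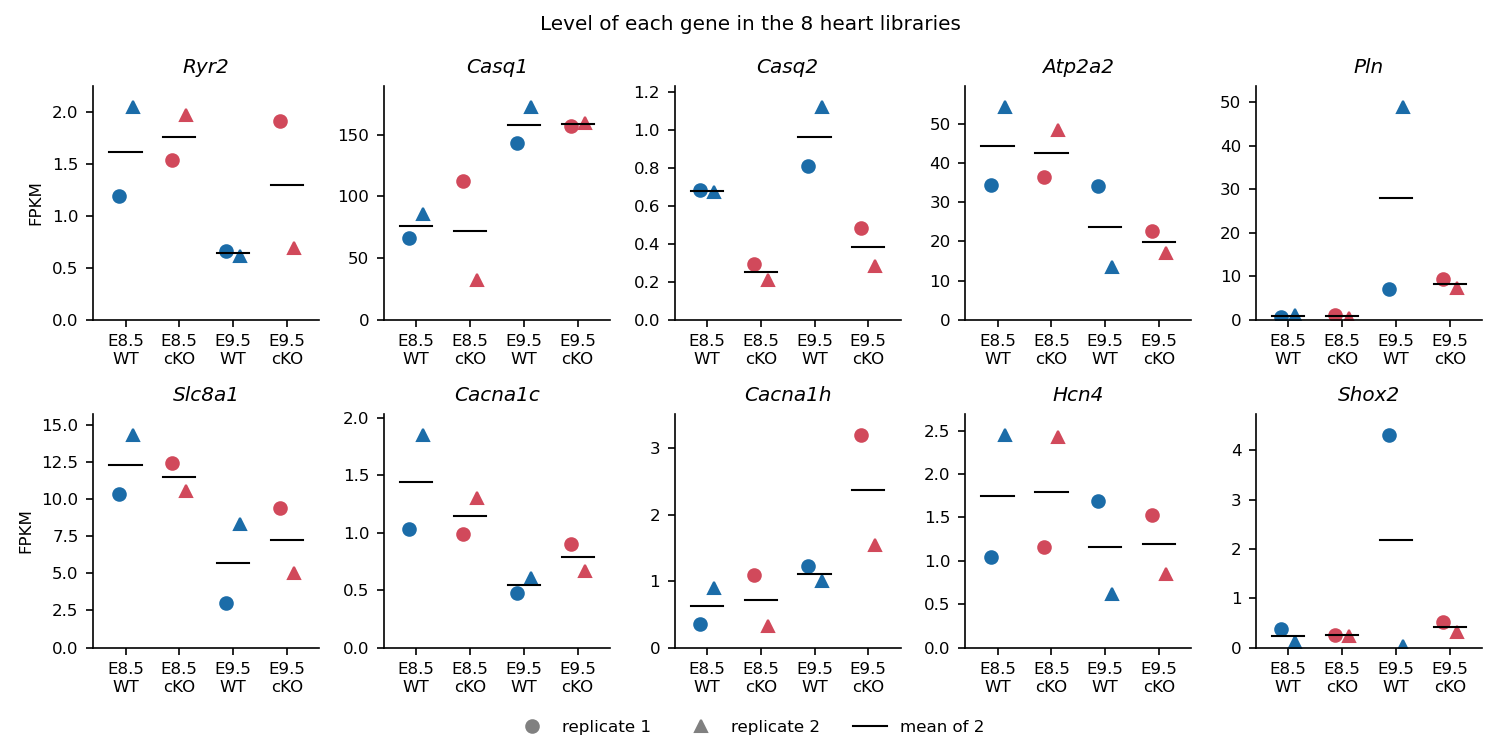
Level of each of the 10 genes in FPKM (vertical axes, linear and starting at 0, with a scale of its own per gene) in the 8 libraries, by group (horizontal axes). Circles are replicate 1, triangles are replicate 2, and bars are the mean of 2. *Pln* and *Casq1* are higher in all E9.5 libraries than in any E8.5 library, and the 4 cKO libraries of *Casq2* lie below its 4 WT libraries.

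Calcium release from the store was represented by *Ryr2* and by both calsequestrins. *Ryr2* (chr13:11553103-12106945) encodes the cardiac ryanodine receptor. Its WT libraries measured 1.19 and 2.04 FPKM at E8.5, then 0.662 and 0.618 FPKM at E9.5, and its cKO libraries 1.54 and 1.97 FPKM, then 1.91 and 0.688 FPKM. Of the 4 E9.5 libraries, 3 lay below every E8.5 library, and cKO replicate 1 lay among the E8.5 values. *Ryr2* stood 26.0 to 248-fold above *Ryr1*, the isoform of skeletal muscle, in the same libraries. Its longest transcript in GENCODE vM1 is 16813 nt. In E9.5 cKO replicate 1, genes with transcripts of 7000 nt or more (407 tested genes) had the highest median relative to all tested genes of any library, -0.958 on the log2 scale against -1.38 to -1.08 in the others. *Ttn*, which encodes titin and has a very long transcript, was also highest there, at 16.7 FPKM against 3.99 to 10.3 FPKM. The part of transcript length in the *Ryr2* value was not tested.

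*Casq1* (chr1:172209894-172219895) encodes calsequestrin 1, the form known from fast skeletal muscle, and *Casq2* (chr3:102086455-102146512) encodes the cardiac form. In WT hearts *Casq1* measured 66.3 and 85.7 FPKM at E8.5, then 144 and 172 FPKM at E9.5, and cKO hearts 112 and 32.3 FPKM, then 157 and 160 FPKM. All E9.5 libraries lay above all E8.5 libraries, and both genotypes shared the same range at E9.5. In WT hearts *Casq2* measured 0.684 and 0.674 FPKM at E8.5, then 0.809 and 1.12 FPKM at E9.5, and cKO hearts 0.294 and 0.211 FPKM, then 0.482 and 0.284 FPKM. Here the genotypes separated within each stage, with cKO below WT.

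FPKM is scaled by transcript length, so the levels of both calsequestrins were set side by side, with limits. Tested genes with transcripts of 2000 nt or less still had medians of 1.275 to 1.59 relative to all tested genes (log2). Those of 7000 nt or more had -1.38 to -0.958. The longest transcript is 1874 nt for *Casq1* and 2565 nt for *Casq2*, and the part of length was not tested. *Casq2* was also at most 1.12 FPKM, so the folds are imprecise. *Casq1* exceeded *Casq2* in 8 of 8 libraries, by 96.9 to 563-fold with a median of 166-fold. The 4 myogenic regulatory factors, which specify and differentiate skeletal muscle cells, were at or near 0. *Myf5* and *Myog* were listed at 0 in all libraries, *Myod1* reached at most 0.042 FPKM and *Myf6* at most 0.067 FPKM. Other genes of the skeletal muscle list were measured, among them *Tnnt3* at 2.47 to 11.5 FPKM, *Pvalb* at 0.234 to 5.43 FPKM and *Chrna1* at 0.920 to 4.59 FPKM. The summed level of the 12 skeletal muscle markers listed went from 39.3 and 49.6 FPKM to 32.7 and 19.99 FPKM between the stages in WT and from 49.8 and 26.6 FPKM to 87.6 and 91.9 FPKM in cKO, and most of the last pair was *Tnni2* (79.5 and 85.5 FPKM), which encodes fast troponin I.

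Calcium removal was represented by the pump, its inhibitor and the exchanger. *Atp2a2* (chr5:122453513-122502225) encodes the pump SERCA2. Its WT libraries measured 34.3 and 54.2 FPKM at E8.5, then 34.2 and 13.4 FPKM at E9.5, and its cKO libraries 36.6 and 48.4 FPKM, then 22.7 and 17.0 FPKM. The stages did not overlap, although E9.5 WT replicate 1 lay just under the lowest E8.5 library. *Atp2a2* stood 7.92 to 98.1-fold above *Atp2a1*, the pump of fast skeletal muscle.

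*Pln* (chr10:53337686-53345999) encodes phospholamban. The WT replicates held 0.735 and 1.02 FPKM at E8.5, then 6.97 and 48.8 FPKM at E9.5, and the cKO replicates 1.21 and 0.518 FPKM, then 9.38 and 7.23 FPKM. All E9.5 libraries were above all E8.5 libraries, and E9.5 WT replicate 2 stood far above the other 3. The locus lies inside that of *Cep85l*, whose value was at most 0.559 FPKM in any library and highest in E8.5 cKO replicate 2. Sarcolipin (*Sln*), the related inhibitor of the pump, stayed between 0.159 and 1.72 FPKM.

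*Slc8a1* (chr17:81373105-81738387) encodes the sodium-calcium exchanger of the heart. WT hearts contained 10.3 and 14.3 FPKM at E8.5, then 3.02 and 8.29 FPKM at E9.5, and cKO hearts 12.4 and 10.5 FPKM, then 9.38 and 5.04 FPKM. The E9.5 libraries lay below the E8.5 libraries without overlap, and they differed among themselves more than the E8.5 libraries did.

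Calcium entry was represented by a channel of each class. *Cacna1c* (chr6:118587240-119196409) encodes the pore of the L-type channel Cav1.2. Its WT libraries measured 1.03 and 1.85 FPKM at E8.5, then 0.476 and 0.608 FPKM at E9.5, and its cKO libraries 0.985 and 1.30 FPKM, then 0.902 and 0.665 FPKM. The E9.5 libraries were below all E8.5 libraries. The locus overlaps *Dcp1b*, which ran from 2.25 to 18.7 FPKM and was also lower at E9.5 in WT. How reads of the shared stretch were assigned was not examined. *Cacna1d*, the other L-type pore gene of the heart, was higher than *Cacna1c* in 6 of 8 libraries.

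*Cacna1h* (chr17:25374287-25433783) encodes the T-type channel Cav3.2. The WT replicates held 0.351 and 0.898 FPKM at E8.5, then 1.23 and 1.002 FPKM at E9.5, and the cKO replicates 1.09 and 0.328 FPKM, then 3.20 and 1.54 FPKM. The stages overlapped through E8.5 cKO replicate 1 and E9.5 WT replicate 2, and the highest value came from E9.5 cKO replicate 1, the library with the highest median of long transcripts. *Cacna1g*, another T-type pore gene of the heart, was at most 0.10 FPKM.

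The pacemaker genes were low and variable. *Hcn4* (chr9:58823512-58860955) encodes the channel of the pacemaker current. WT hearts contained 1.04 and 2.45 FPKM at E8.5, then 1.68 and 0.622 FPKM at E9.5, and cKO hearts 1.16 and 2.43 FPKM, then 1.53 and 0.851 FPKM. The groups overlapped by stage and by genotype, and the replicates of each group differed by more than the group means did.

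*Shox2* (chr3:66971723-66981771) encodes a homeodomain factor of the sinus venosus and sinoatrial node. Its WT libraries measured 0.373 and 0.109 FPKM at E8.5, then 4.31 and 0.037 FPKM at E9.5, and its cKO libraries 0.257 and 0.239 FPKM, then 0.521 and 0.312 FPKM. The E9.5 WT replicates held both the highest and the lowest *Shox2* value of the 8 libraries. Replicate 1 of E9.5 WT also stood above replicate 2 in *Kcna5* (4.76 against 0.691 FPKM), *Vsnl1* (5.51 against 0.230 FPKM) and *Tbx18* (1.05 against 0.488 FPKM), which are associated with the atria or the venous pole, and in the epicardial marker *Tcf21* (14.3 against 3.79 FPKM). These genes were named after their values were seen. Over the whole list of 36 other pacemaker and conduction genes, replicate 1 was higher in 25, lower in 10 and equal in 1, and *Isl1* (2.58 against 6.31 FPKM) and *Bmp4* (7.06 against 13.2 FPKM) were among those lower in it. Some of the 36 were near 0 in both, such as *Cntn2* (0.065 against 0.041 FPKM). The same count was not made over all features, so it does not show that the list stands out. The summed level of 7 epicardial markers was 42.5 and 25.8 FPKM in these libraries and 10.5 to 22.7 FPKM in the other 6. What the dissections included was not tested.

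The first comparison was between the stages, over 1 day of development in each genotype. It showed a broad shift in the deposited FPKM that bears on every gene below. Between the stages the median tested gene changed by -0.84 on the log2 scale in WT and by -0.64 in cKO. Differences were called with limma at a Benjamini-Hochberg adjusted p under 0.05 and 1.5-fold. In WT the calls took in 48.1% of tested genes, with 140 up and 4683 down at E9.5, and in cKO 30.6%, with 205 up and 2857 down. With the genotypes averaged, 59.9% were called, 251 higher and 5746 lower. When libraries were scaled to the median ratio over tested genes, the averaged comparison called 1002 genes higher and 451 lower, so the share of higher calls moved from 4.19% to 69%. The split became 321 higher and 69 lower in WT and 400 higher and 77 lower in cKO. Calls of lower genes are therefore also given under that scaling.

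*Pln* rose with stage in both genotypes. At E8.5 its group means lay under 1 FPKM, so it passed the filter only through E9.5, where it was high. Its mean was 31.9-fold higher at E9.5 than at E8.5 in WT and 9.62-fold higher in cKO. On the log2(FPKM + 1) scale it rose by 3.41 ± 0.72 (SE) in WT, with an adjusted p of 0.0145 in limma, and by 2.34 ± 0.72 in cKO, with an adjusted p of 0.0429. With the genotypes averaged the rise was 2.88 ± 0.51 (SE, 4 against 4 libraries, limma adjusted p 0.00326), and it stayed between 2.21 and 3.54 with any single library left out. The fit without filter, which does not depend on that choice, also called the averaged rise (adjusted p 0.0140) and the rise in WT (adjusted p 0.0382), but not the rise in cKO (adjusted p 0.114). Without E9.5 WT replicate 2, the library with the highest value, the rise in WT was 2.09 with an adjusted p of 0.0182. The call in WT was lost without either E8.5 WT library, with adjusted p of 0.0873 and 0.0591. The call in cKO was lost under median-ratio scaling (2.90, adjusted p 0.0607), quantile normalization (adjusted p 0.0582) and with the replicate number as a block (adjusted p 0.0556). It was also lost without any 1 of 6 libraries, both replicates of E8.5 WT, E8.5 cKO and E9.5 cKO, with adjusted p of 0.0643 to 0.160. The difference between the genotypes in this rise was not called (interaction -1.08 ± 1.01, limma adjusted p 0.852).

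*Casq1* and *Cacna1h* rose with the genotypes averaged, and in the deposited FPKM neither was called within a genotype. In cKO alone both were called under median-ratio scaling (2.13, adjusted p 0.0469 and 1.42, adjusted p 0.0453), as was *Cacna1h* after quantile normalization (1.58, adjusted p 0.0441) and without E8.5 cKO replicate 1 (adjusted p 0.0395). In WT alone *Casq1* was called when only the 4 WT libraries were fitted (adjusted p 0.0189) and without either E8.5 cKO library (adjusted p 0.00968 and 0.00955). *Casq1* rose by 1.21 ± 0.36 (SE, limma adjusted p 0.0199), with changes of 1.05 in WT and 1.38 in cKO. The change in cKO was 0.49 (adjusted p 0.178) without E8.5 cKO replicate 2 and 2.26 (adjusted p 0.00479) without E8.5 cKO replicate 1. Without E8.5 cKO replicate 2, the library with the lowest *Casq1* and the highest decidual sum, the averaged rise was 0.77 with an adjusted p of 0.00825. It was not called without E8.5 WT replicate 1 or without any one of 3 E9.5 libraries, WT replicate 2 and both cKO replicates (adjusted p 0.0545 to 0.0621). *Cacna1h* rose by 0.69 ± 0.24 (SE, limma adjusted p 0.0373) but changed by -0.39 when scaled to cardiomyocyte markers, and the call was lost without 1 of 5 libraries taken in turn, with changes of 0.50 to 0.72 and adjusted p of 0.0673 to 0.121. Those 5 were E8.5 WT replicate 1, E8.5 cKO replicate 2, both E9.5 WT replicates and E9.5 cKO replicate 1. The call of *Cacna1h* was also lost when libraries were scaled to loci of at least 300 bp (0.66, adjusted p 0.0510). Like *Pln*, *Cacna1h* passed the filter only through E9.5, and in the fit without filter neither it (adjusted p 0.0747) nor *Casq1* (adjusted p 0.0508) was called.

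*Atp2a2* and *Slc8a1* were called lower at E9.5 with the genotypes averaged, but not under every scaling of the libraries. *Atp2a2* fell by 1.02 ± 0.32 on the log2 scale (SE, limma adjusted p 0.0238), which is 0.28 below the median gene. Under median-ratio scaling its change was -0.17 with an adjusted p of 0.737. *Slc8a1* fell by 0.88 ± 0.31 (SE, limma adjusted p 0.0365), 0.14 below the median gene, and its change was -0.10 under median-ratio scaling and 0.02 after quantile normalization. The call of *Slc8a1* was also lost with the replicate number as a block (adjusted p 0.0502), and both calls were lost in the fit without filter (adjusted p 0.0551 for *Atp2a2* and 0.0810 for *Slc8a1*). Leaving out a library moved the changes to between -1.34 and -0.69 for *Atp2a2* and between -1.18 and -0.58 for *Slc8a1*. For *Atp2a2* the call was lost without E8.5 WT replicate 2, E8.5 cKO replicate 2, E9.5 WT replicate 2 or E9.5 cKO replicate 2 (adjusted p 0.0549 to 0.0844). For *Slc8a1* it was lost without any library but E9.5 WT replicate 2 and E9.5 cKO replicate 1 (adjusted p 0.0544 to 0.133).

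The other genes were not called with stage in the deposited FPKM. *Ryr2* changed by -0.48 ± 0.22 (SE, limma adjusted p 0.0866; 0.144 in the fit without filter), and by -0.68 with an adjusted p of 0.0320 when E9.5 cKO replicate 1 was left out. It was called lower when libraries were scaled to loci of at least 300 bp (-0.61, adjusted p 0.0460). *Hcn4* changed by -0.34 ± 0.28, with an adjusted p of 0.296. Scaled to cardiomyocyte markers, limma called both lower, *Ryr2* at -1.55 (adjusted p 0.000156) and *Hcn4* at -1.41 (adjusted p 0.000526), where the median tested gene was at -1.81. In the fit without filter, limma gave changes of -0.45 ± 0.15 for *Cacna1c*, 0.18 ± 0.09 for *Casq2* and 0.55 ± 0.49 for *Shox2*, with adjusted p of 0.0628, 0.171 and 0.414. A pseudocount of 1 holds these low genes near 0.

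Counted by overlap alone, *Pln* and *Casq1* were higher and *Atp2a2*, *Slc8a1* and *Cacna1c* were lower in all 4 E9.5 libraries than in all 4 E8.5 libraries. Among the 13722 features above 0 in every library, 1.73% were higher and 42.1% were lower in this way. The 3 lower genes among 10 are thus no more frequent than in the background, while the 2 higher genes belong to a pattern that few features showed. Among the 12 cardiomyocyte markers, *Tnnc1*, *Actc1*, *Myh7*, *Myl3*, *Myl4*, *Mybpc3* and *Csrp3* were also higher in this way. *Tnnt2*, *Tnni1*, *Myh6*, *Myl7* and *Ttn* were not. The pattern was therefore not particular to *Pln* and *Casq1*. In an exact permutation test of 4 against 4 libraries, two-sided, *Pln*, *Casq1*, *Atp2a2*, *Slc8a1* and *Cacna1c* each had p = 0.0286. This is the smallest p that the design can give, and it became 0.0952 after Benjamini-Hochberg adjustment over 20 tests (10 genes, by stage and by genotype).

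**Figure D2:**
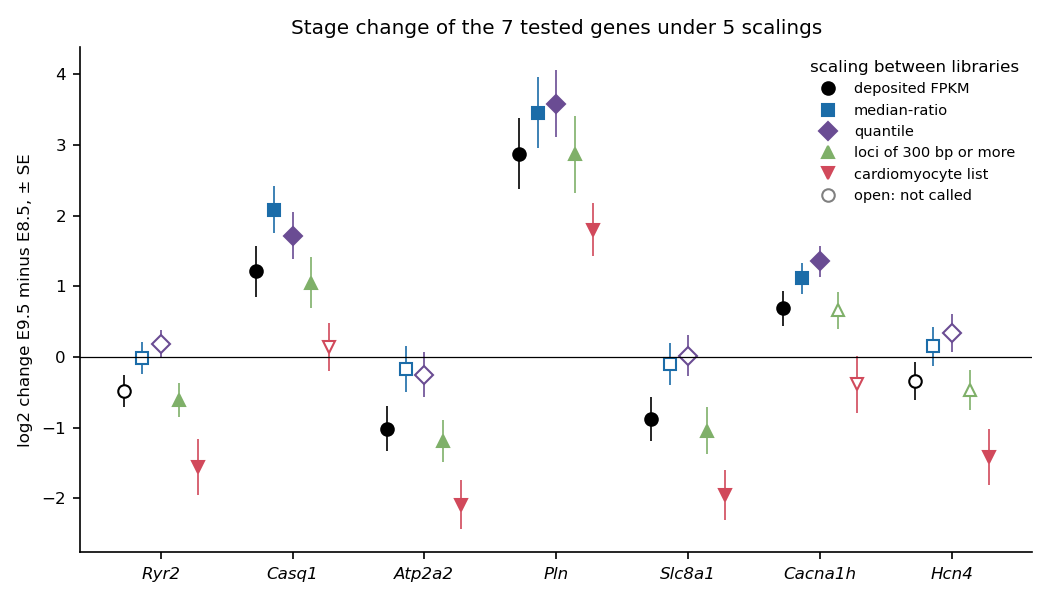
Log2 change from E8.5 to E9.5, genotypes averaged (vertical axis, points with SE from limma), of the 7 tested genes under the deposited FPKM and 4 other scalings of the libraries (symbols and colours). Filled symbols passed the adjusted p and the 1.5-fold limit. *Pln* stays above 0 and called under all 5, while the falls of *Atp2a2* and *Slc8a1* shrink to near 0 under median-ratio and quantile scaling and grow when libraries are scaled to cardiomyocyte markers. All 5 keep the filter on mean FPKM, which *Pln* passed only through E9.5, where it was high. In cKO alone its call was lost under median-ratio and quantile scaling.

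The heart muscle genes themselves moved with stage. Of the 12 cardiomyocyte markers, 9 were called higher at E9.5 and none lower, with a median change of 0.94 against -0.74 for all tested genes. Each of the 10 genes was therefore also taken relative to the mean log2 level of these markers in the same library. On this measure *Pln* was 1.80 higher at E9.5 than at E8.5. *Ryr2* was 1.55 lower, *Atp2a2* 2.09 lower, *Slc8a1* 1.95 lower, *Cacna1c* 1.53 lower and *Hcn4* 1.41 lower on the log2 scale, each without overlap between the stages. Over the 13722 features above 0 in all libraries, 88.6% were lower without overlap on this measure and 0.146% higher, with a median difference of -1.62, so *Ryr2*, *Cacna1c* and *Hcn4* fell by less than the median feature. All 6 had an exact permutation p of 0.0286, the smallest possible, and an adjusted p of 0.0952 over 20 tests. *Casq1* changed by 0.14 ± 0.42 (pooled SD) on this measure, with an exact permutation p of 0.886. The rise of *Casq1* in FPKM was thus of the size of that of the markers, and *Cacna1h*, which had risen in FPKM, changed by -0.39 relative to them.

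Ratios within a library depend little on how libraries are scaled, apart from the pseudocount of 1. The log2 ratio of *Pln* to *Atp2a2* moved from -4.35 and -4.78 at E8.5 to -2.14 and 1.79 at E9.5 in WT and from -4.09 and -5.02 to -1.19 and -1.13 in cKO. The inhibitor thus gained on its pump in every E9.5 library, by a mean of 3.89 on the log2 scale. The log2 ratio of *Cacna1c* to *Cacna1h* moved from 0.59 and 0.59 at E8.5 to -0.59 and -0.32 at E9.5 in WT and from -0.07 and 0.79 to -1.14 and -0.61 in cKO, with a mean difference of -1.14 between the stages. Neither ratio overlapped between the stages, and both had an exact permutation p of 0.0286 (adjusted p 0.171 over 12 tests of 6 ratios). The ratio of *Slc8a1* to *Atp2a2* differed by 0.14 between the stages, with a pooled SD of 0.78 and an exact permutation p of 0.829.

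**Figure D3:**
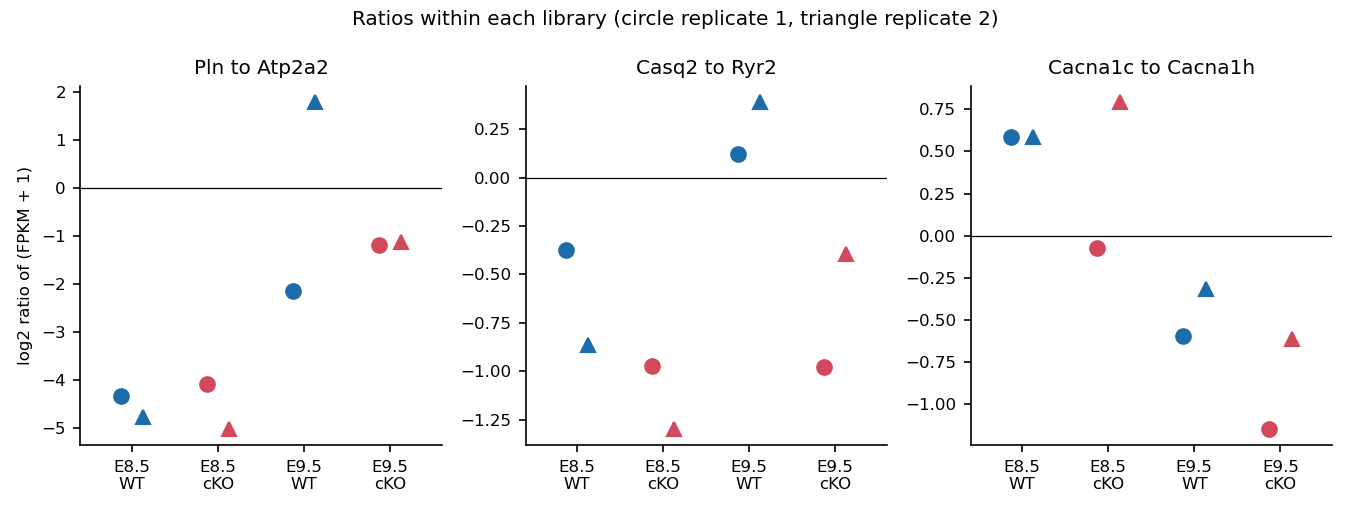
Log2 ratio of (FPKM + 1) within each library (vertical axes) for 3 pairs of genes, by group (horizontal axes), with circles for replicate 1 and triangles for replicate 2. *Pln* to *Atp2a2* is higher and *Cacna1c* to *Cacna1h* lower in all E9.5 libraries than in all E8.5 libraries, and the highest *Pln* to *Atp2a2* ratio, 1.79, is that of E9.5 WT replicate 2.

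The second comparison was between cKO and WT hearts at each stage, which asks what loss of *Dgcr8* did to these genes. None of the 7 tested genes was called at E8.5, at E9.5, with the stages averaged or in the interaction. The background was nearly as empty, with 0.00998% of tested genes called at E8.5, 0.18% at E9.5, 0.0399% with the stages averaged and 0.0399% in the interaction. At an unadjusted p under 0.05 and 1.5-fold, limma gave 715 genes at E8.5, 1510 at E9.5, 1105 with the stages averaged and 719 in the interaction, and none of the 7 was among them. The split of calls depended on scaling here too. At E8.5 it was 1 gene higher in cKO and 0 lower in the deposited FPKM and 5 and 34 when scaled to cardiomyocyte markers, at E9.5 it was 17 and 1 against 45 and 202, and with the stages averaged 3 and 1 against 14 and 317. With 2 libraries in a group the standard errors of the 7 genes ran from 0.31 to 0.72 on the log2 scale. A call needs a change well above its standard error, so differences of that size were not detectable and larger ones could be missed too. At E9.5 the changes of these genes ran from -1.11 ± 0.72 for *Pln* to 0.63 ± 0.34 for *Cacna1h* (SE). The direction for *Pln* turned to 0.21 without E9.5 WT replicate 2 and was -2.43 without E9.5 WT replicate 1, and that of *Cacna1h* was 0.27 without E9.5 cKO replicate 1 and 0.99 without E9.5 cKO replicate 2. *Pln* averaged 8.31 ± 1.52 FPKM (SD, n = 2) in cKO and 27.9 ± 29.6 FPKM (SD, n = 2) in WT, and the groups overlapped. *Casq1* was the closest match between genotypes at E9.5, with 158 ± 1.62 FPKM in cKO and 158 ± 20.4 FPKM in WT (SD, n = 2).

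*Casq2* was the only 1 of the 10 genes whose genotypes did not overlap over all libraries. Its mean in cKO was 37.2% of WT at E8.5, at 0.252 ± 0.059 against 0.679 ± 0.007 FPKM (SD, n = 2), and 39.7% of WT at E9.5, at 0.383 ± 0.140 against 0.964 ± 0.219 FPKM. All 4 cKO libraries lay below all 4 WT libraries, as did 1.4% of the 13722 features, and 0.321% lay above. In the fit without filter limma gave -0.42 ± 0.13 at E8.5 and -0.51 ± 0.13 at E9.5, with unadjusted p of 0.0163 and 0.00759 and adjusted p of 0.527 and 0.273. With the stages averaged the change was -0.46 ± 0.09, with an unadjusted p of 0.00213 and an adjusted p of 0.204 in limma, so the difference did not pass the correction over all genes. The exact permutation test of 4 against 4 libraries gave p = 0.0286 and an adjusted p of 0.0952. Relative to cardiomyocyte markers *Casq2* was 0.72 lower in cKO, the genotypes overlapped and the exact permutation p was 0.114. Relative to *Ryr2* it was 0.73 lower, with an exact permutation p of 0.0571. At these levels, under 1.2 FPKM, no counting error could be attached because read counts are not part of the table.

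**Figure D4:**
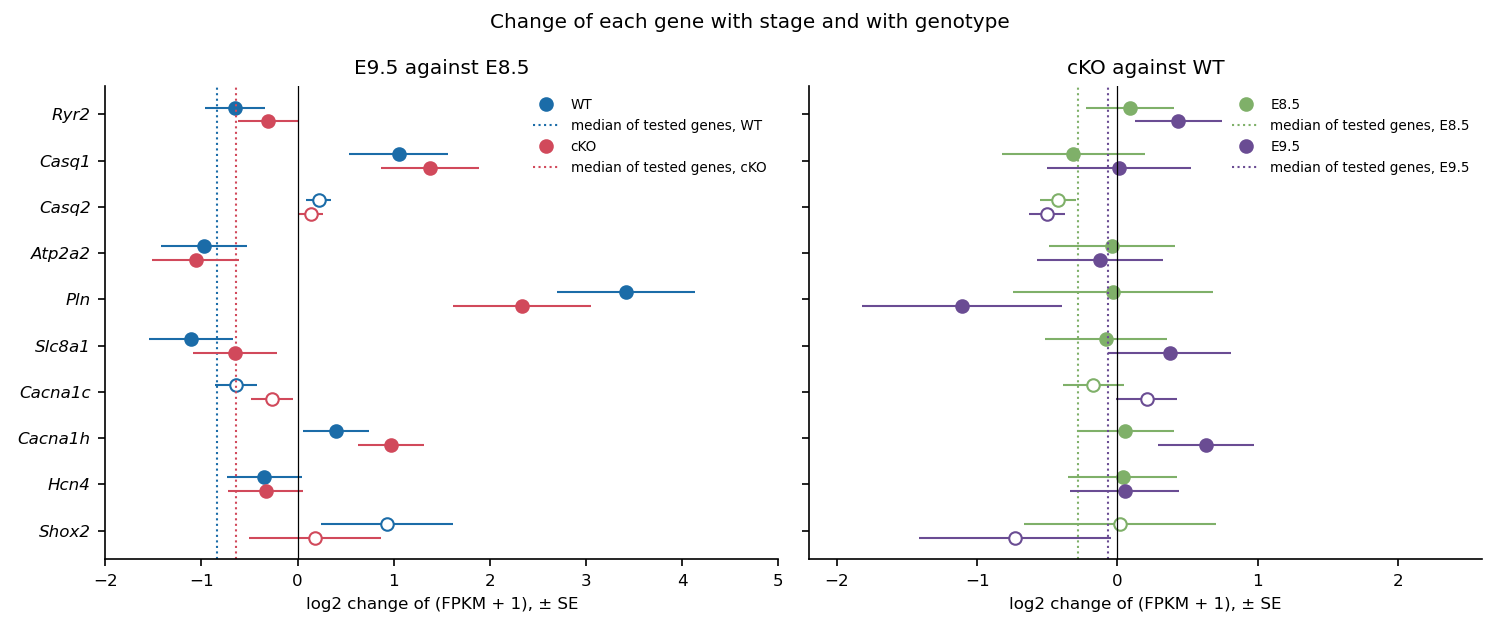
Log2 change of (FPKM + 1) with SE from limma (horizontal axes) of each of the 10 genes, on the left between the stages in WT (blue) and cKO (red), on the right from WT to cKO at E8.5 (green) and E9.5 (purple). Open points are from the fit without filter, and dotted lines mark the median of all tested genes. *Pln* changed most with stage, by 3.41 in WT and 2.34 in cKO, and *Casq2* is the only gene whose bars lie clear of 0 at both stages in the genotype panel.

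For 4 of the genes, the tested genes with the most similar profile over the 8 libraries were found by the root mean square (RMS) difference of log2(FPKM + 1) values centred on each gene's own mean. For *Ryr2* these were *Cyb5d2*, *H2-Ke6* and *Btbd6*, with RMS differences of 0.104 to 0.117 against a median of 0.501 over all tested genes. For *Casq2* they were *Cux1* (0.095), *Mdc1* (0.155) and *Sf1* (0.164), against a median of 0.600. For *Hcn4* they were *Lrrc14*, *Epn1* and *B3galt6*, with 0.106 to 0.117. For *Shox2* they were *Fabp5* (0.312), *Myrf* (0.380) and *Kcna5* (0.386), against a median of 0.965. The SD of the gene itself over the libraries was larger for *Shox2* (0.755) than for *Casq2* (0.281), so RMS differences are not comparable between the 4 genes. *Fabp5* was 609 FPKM in E9.5 WT replicate 1 and 96.5 to 219 FPKM in the other 7 libraries, so this likeness rests on the same library as the high *Shox2* value.

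Other genes of calcium cycling were taken from a list of 49, of which 30 were tested. Averaged over genotype, E9.5 hearts had 2 of them called higher and 12 lower, beside 2.51% higher and 57.4% lower among all tested genes, and the list's median change was -0.54 against -0.74 for all tested genes. The largest falls were in *S100a1* (-1.62 ± 0.25, SE), which encodes a calcium-binding partner of the ryanodine receptor and the pump, *Mcu* (-1.53 ± 0.18), the pore of the mitochondrial calcium uniporter, *Cacna1d* (-1.39 ± 0.20), *Letm1* (-1.23 ± 0.33), a mitochondrial ion exchanger, and *Itpr1* (-1.16 ± 0.20), an inositol trisphosphate receptor. Their limma adjusted p ran from 0.00192 to 0.0131. *Cacna1d* and *Itpr1* averaged 0.621 and 0.688 FPKM at E9.5, so they passed the filter only through E8.5, where they were high, and the fit without filter also called both lower (adjusted p 0.00823 and 0.0111). That fit, over all 49 genes, called 1 higher and 13 lower, beside 1.06% and 27.6% of 19580 features. Under median-ratio scaling the list gave 5 higher and 2 lower, beside 1002 higher and 451 lower of 10018 genes, and the 2 lower were *Mcu* (-0.87, adjusted p 0.0221) and *Cacna1d* (-0.88, adjusted p 0.0262; not called after quantile normalization, -0.69), while *S100a1*, *Letm1* and *Itpr1* were not called. At E8.5 *Cacna1d* measured 2.71 and 4.52 FPKM in WT, against 2.43 and 3.49 FPKM in cKO, and 0.523, 0.444, 0.931 and 0.586 FPKM in the E9.5 libraries, all of them lower. The 2 genes called higher, named after their values were seen, were *Calr* (0.67 ± 0.17, limma adjusted p 0.0102), a calcium-binding chaperone of the endoplasmic reticulum, and *Camk2a* (0.63 ± 0.22, adjusted p 0.0340), a calmodulin-dependent kinase. Both were also called under median-ratio and quantile scaling, with changes of 1.54 and 0.60 for *Calr* and 1.31 and 1.42 for *Camk2a*. Neither was called when libraries were scaled to loci of at least 300 bp (0.50 and 0.51) or to cardiomyocyte markers (-0.41 and -0.45).

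By genotype, 2 of these 30 genes were higher and 11 lower in E9.5 WT hearts, beside 1.4% higher and 46.7% lower among all tested genes. In E9.5 cKO hearts 0 were higher and 6 lower, beside 2.05% and 28.5%. *S100a1*, *Mcu*, *Cacna1d* and *Tmem38b*, a store potassium channel subunit, were called lower in both genotypes, but these calls were lost under median-ratio scaling, where 0 of the 30 were lower in either genotype beside 69 of 10018 genes in WT and 77 in cKO. In the fit without filter 7 of the 49 were lower in WT and 1 in cKO, beside 16.7% and 5.61% of features, and *Cacna1d* was called in WT (adjusted p 0.0281) but not in cKO (adjusted p 0.0594). None of the 30 was called between cKO and WT in the deposited FPKM. The smallest unadjusted p with the stages averaged belonged to *Sri* (0.52 ± 0.17, unadjusted p 0.0151, limma adjusted p 0.176) and *Slc8b1* (0.43 ± 0.17, unadjusted p 0.0311, adjusted p 0.222), which encode sorcin and the mitochondrial sodium-calcium exchanger.

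Of 36 other pacemaker and conduction genes, 19 were tested. With the genotypes averaged, 1 was called higher and 6 lower at E9.5, beside the same 2.51% and 57.4% of all tested genes, and the median change of the list was -0.54 against -0.74. The count of 6 lower comprised *Isl1* (-1.33 ± 0.42, SE) and *Irx3* (-1.27 ± 0.25), which encode homeodomain factors, *Bves* (-1.19 ± 0.24), a cyclic AMP binding membrane protein, *Id2* (-1.04 ± 0.33), *Tbx3* (-0.94 ± 0.27), a repressor of the working muscle program in the node, and *Gjc1* (-0.90 ± 0.16), a gap junction protein. Their limma adjusted p ran from 0.00325 to 0.0255. *Irx3* averaged 0.862 FPKM at E9.5 and passed the filter only through E8.5, where it was high. The fit without filter also called it lower (adjusted p 0.0158), and over all 36 genes it called 1 higher and 4 lower, beside 1.06% and 27.6% of features. None of the 6 was called under median-ratio scaling, where 4 genes of the list were called higher beside 1002 of 10018 genes higher and 451 lower. The gene called higher was *Kcne1* (0.85 ± 0.19, adjusted p 0.00629), a potassium channel subunit, named after its value was seen. It averaged 0.417 FPKM at E8.5 and passed the filter only through E9.5, where it was high, and the fit without filter called it too (adjusted p 0.0137). It was also called under median-ratio and quantile scaling, with changes of 1.24 and 1.45, and was -0.22 and not called when scaled to cardiomyocyte markers.

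Between the genotypes none of the 19 was called in the deposited FPKM. In WT hearts *Tbx3* measured 17.3 and 7.74 FPKM at E8.5, then 6.07 and 4.44 FPKM at E9.5, and cKO hearts 4.99 and 3.64 FPKM, then 1.57 and 2.35 FPKM. Within each stage the cKO libraries lay below the WT libraries. With the stages averaged, *Tbx3* changed by -1.17 ± 0.27 (SE, unadjusted p 0.00234, limma adjusted p 0.144) and *Id2* by -1.20 ± 0.33 (unadjusted p 0.00675, adjusted p 0.151), the smallest unadjusted p of the list. Scaling to cardiomyocyte markers moved the median tested gene from -0.17 to -0.43 and called 317 of 10018 genes lower and 14 higher. Under it 5 of the 19 were called lower, *Tbx3* (-1.42, adjusted p 0.0112), *Id2* (-1.46, adjusted p 0.00692) and, named after their values were seen, *Gja1* (-1.46), *Gja5* (-1.26) and *Isl1* (-1.18).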

How the data were processed

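The authors reverse transcribed and amplified total RNA by Smart-seq, sequenced it on an Illumina instrument and mapped reads with BWA; the study names mm9, but 91.7% of 9513 gene starts in the deposited table lay within 1000 bp of GRCm38, so coordinates are GRCm38. The authors deposited FPKM per gene and library (24930 entries, 8 per-sample columns, 0 unused); the program that made them is not given in the sources used here. Absolute depth is unknown, and only its ratio between libraries (up to 1.45) was read from low values. For 285 repeated symbols only the entry of largest mean FPKM entered. Values were analysed as log2(FPKM + 1), which understates changes of low genes, in 1 limma 3.58.1 model of 4 groups (R 4.3.3, variance trend, two-sided, Benjamini-Hochberg over 10018 genes), tested on simulated data. Exact permutation tests, two-sided, used SciPy 1.17.1; 2 against 2 libraries cannot go below p = 0.333. Replicates are labelled as separate samples, and nothing ties them to single embryos, so p-values measure the spread between these samples. The labels give no batch. The study names a pair of sequencing providers without saying which sequenced each library, so a difference between providers cannot be told apart from the groups. The members and lists were chosen with earlier results of these data known. Named genes were the 10 members, up to 5 called genes per list and comparison by change (otherwise the 2 smallest p), and the nearest profiles; other genes are named as paralogues or markers or, where said, after their values were seen. Equally numbered replicates had correlations of -0.116 to 0.195 and were not treated as pairs. The result of 1 gene of the calcium cycling list is not reported here.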

Additional observations from a re-analysis of the deposited data

How the results depend on the processing

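Numbers in this part are genes called, with the genes of the calcium and pacemaker set called given as members. Under median-ratio scaling 56 genes were called between genotypes at E9.5, 9 with the stages averaged, 390 between stages in WT, 477 in cKO (2 members) and 1453 with the genotypes averaged (3 members). Quantile normalization gave 3 between genotypes at E8.5, 31 at E9.5 and 8 averaged, 115 between stages in WT, 307 in cKO, 941 averaged (3 members) and 0 in the interaction. Scaling to loci of at least 300 bp gave 3 members between stages in WT and 0 genes in the interaction. Scaling to cardiomyocyte markers gave 39 between genotypes at E8.5, 247 at E9.5 and 331 averaged, 9035 between stages in WT and 8518 in cKO (5 members each), 9530 averaged and 29 in the interaction. A pseudocount of 0.1 gave 0 at E8.5 between genotypes and 2 in the interaction. Without a filter there were 0 between genotypes at E8.5, 5 at E9.5 and 2 averaged, 1188 between stages in cKO (0 members), 1 member with the genotypes averaged and 0 in the interaction. A mean of at least 5 FPKM gave 2 between genotypes at E8.5, 2629 between stages in WT, 1932 in cKO, 3488 averaged and 2 in the interaction. With only the 4 libraries compared there were 0 between genotypes at E9.5, 2 members between stages in WT and 1518 genes in cKO. *Slc8a1* changed by 0.02 with stage after quantile normalization and *Cacna1h* by -0.39 when scaled to cardiomyocyte markers. The cause was not tested for any of these.

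Equal replicate numbers did not pair the libraries. With the replicate number as a block, the fit called 0 members between stages in cKO, 0 genes in the interaction and 2 between genotypes with the stages averaged. A crossed pairing of the WT libraries, added after seeing the data, called 4393 genes and 1 member between stages. Leaving out 1 library at a time gave 0 to 50 genes between genotypes at E8.5, 1 to 87 at E9.5 and 1 to 47 averaged, with 0 members throughout. It gave 32 to 6035 between stages in WT (0 to 2 members), 1 to 3157 in cKO (0 to 2 members), 4709 to 6275 averaged (2 to 4 members) and 0 to 28 in the interaction. With 2 libraries in a group and no read counts, low genes such as *Casq2* and *Shox2* carry no counting error.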
